A study of Mus musculus with 4 samples.

Results

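Transcripts of 10 genes that control passage through the G1 phase of the cell cycle were examined in bulk RNA-seq of mouse bone marrow cells labelled Lsk. The genes were taken by name from the 55399 genes of the count table. They comprise the CIP/KIP inhibitors Cdkn1a, Cdkn1b and Cdkn1c, the INK4 inhibitors Cdkn2a, Cdkn2c and Cdkn2d, the D-type cyclins Ccnd2 and Ccnd3, and the kinases Cdk4 and Cdk6. All 10 were in the table, and 9 of them passed the low-count filter and were tested among 16393 genes. Of the 4 libraries, 2 carried the genotype label Ppm1bCKO (a conditional knockout of the phosphatase gene Ppm1b) and 2 the label Ppm1bfl/fl (alleles flanked by loxP sites, without Cre as far as the label says). The Cre line, its cell type, and the age, sex and number of mice are not stated in the labels. The study's title ties Ppm1b to self-renewal of haematopoietic stem cells (HSCs) and to Wnt signalling.

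In G1, a D-type cyclin binds Cdk4 or Cdk6, and the active kinase phosphorylates the retinoblastoma protein, which frees E2F factors to switch on S phase genes. INK4 proteins bind Cdk4 and Cdk6 themselves and keep the cyclin off, whereas CIP/KIP proteins bind whole cyclin-kinase complexes, mainly those of Cdk2. In mouse marrow, HSCs that are out of cycle are known for high Cdkn1c and Cdkn1b and for low Cdk6, and Cdk6 appears as they leave quiescence.

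Total counts ran from 22393973 to 24856083 in the libraries labelled Ppm1bCKO and from 26002277 to 30045382 in the Ppm1bfl/fl libraries. Ppm1b itself was not lower in the libraries labelled Ppm1bCKO, which had 84.3 and 121 CPM (counts scaled to library size by TMM) against 80.8 and 82.5 CPM in Ppm1bfl/fl, so each direction below is one between labels. These counts cover all exons of the gene together, so they cannot show whether the flanked exons alone were lost. Deletion itself was not tested. Ppm1bCKO replicate 2 stood apart. It held 2 counts of the Y-linked genes Ddx3y, Eif2s3y, Kdm5d and Uty, where Ppm1bCKO replicate 1 held 5870 and the Ppm1bfl/fl libraries 5984 and 6396. Y-linked counts thus differed within the Ppm1bCKO pair and were unbalanced between the genotypes, and the sex of the mice is not stated. Levels in Ppm1bCKO replicate 2 also varied with gene length. The median log2 difference between Ppm1bCKO replicate 2 and replicate 1 was 0.33 for genes with 1000 to 2000 exonic bases and -0.32 for genes with over 8000. Between Ppm1bfl/fl replicates 2 and 1 these medians were 0.02 and -0.04. The label Lsk was set beside Kit and Ly6a (Sca-1), which define that fraction. Both were present, which does not show how pure the fraction was. Kit had 187 and 121 CPM in the libraries labelled Ppm1bCKO, against 228 and 194 CPM in Ppm1bfl/fl, and Ly6a had 17.7 and 22.2 CPM, against 22.2 and 18.3 CPM. Markers of other cell types were present too, with the summed CPM of 8 eosinophil genes at 4519 and 7937 in the libraries labelled Ppm1bCKO, against 2991 and 3299 in Ppm1bfl/fl. Over the libraries, the sum of 10 erythroid genes ran from 7519 to 16117 CPM and that of 10 neutrophil genes from 8708 to 9605 CPM. The neutrophil sum includes the primary granule genes Mpo (3248 to 3976 CPM) and Elane (943 to 1073 CPM). It is thus not a measure of mature neutrophils alone. The gene levels below therefore describe all the cells collected, and in such bulk RNA a change in cell numbers and a change in RNA per cell cannot be told apart.

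None of the 9 tested genes passed the test between the genotypes (edgeR quasi-likelihood test with Benjamini-Hochberg adjustment over all tested genes, threshold 0.05). Over all tested genes 0.372% passed, 61 of 16393. As shares of the same 16393 genes, 0.061% were higher and 0.311% lower in the libraries labelled Ppm1bCKO. At an unadjusted p under 0.05 there were 2 of the 9, Cdkn1a and Cdkn2d, by edgeR, by DESeq2 and by limma-voom, where 6.44% of all tested genes reached that level in edgeR (3.23% higher and 3.21% lower). Both were higher in the libraries labelled Ppm1bCKO. Over the 9 tested genes the log2 fold changes ran from -0.30 to 0.54 with a median of 0.24, beside a median of -0.0032 over all tested genes. The libraries labelled Ppm1bCKO lay above both Ppm1bfl/fl libraries without overlap for 5 of the 9, namely Cdkn1a, Cdkn1b, Cdkn1c, Cdkn2d and Cdk4, and below them for 0. Among all tested genes 20.6% lay above without overlap and 20.6% below. For 2 of the 5 the separation was slight. Cdkn1c had only 16 to 20 counts in a library, and its nearest libraries were at 0.716 CPM (Ppm1bCKO) and 0.663 CPM (Ppm1bfl/fl). For Cdk4 the nearest were at 312.15 CPM in Ppm1bCKO replicate 1 and 312.14 CPM in Ppm1bfl/fl replicate 2. A p above the threshold does not show that levels were alike.

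The upstream sequences of Cdkn1a, Cdkn1b and Cdk4 are shown because these genes lay higher in the libraries labelled Ppm1bCKO without overlap. Each also has a start site with a stretch of 247 to 250 upstream bases that holds no annotated exon. The sequences are from RefSeq promoters (GRCm38.p6), read 5′ to 3′ on the gene's strand and ending at most 3 bases before the start site. Capitals mark matches, on either strand, to an E-box, an Sp1 box, a CCAAT box, a FOXO motif or the p53 half-site consensus. The E-box searched was CACGTG, which Myc binds among others. The Sp1 box was GGGCGG. The CCAAT box was those letters alone. The FOXO motif was GTAAACA. No matches overlapped each other.
Cdkn1a, chr17:29090729-29090975, plus strand: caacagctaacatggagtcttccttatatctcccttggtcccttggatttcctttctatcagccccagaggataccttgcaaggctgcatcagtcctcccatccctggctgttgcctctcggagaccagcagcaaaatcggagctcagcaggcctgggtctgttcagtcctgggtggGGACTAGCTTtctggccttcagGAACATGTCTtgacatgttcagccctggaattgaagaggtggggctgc
Cdkn1b, chr6:134920151-134920400, plus strand: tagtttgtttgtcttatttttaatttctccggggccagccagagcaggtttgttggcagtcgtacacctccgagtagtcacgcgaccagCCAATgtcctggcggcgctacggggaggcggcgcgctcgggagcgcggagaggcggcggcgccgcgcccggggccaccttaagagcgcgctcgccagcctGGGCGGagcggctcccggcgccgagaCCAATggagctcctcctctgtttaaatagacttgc
Cdk4, chr10:127063285-127063533, plus strand: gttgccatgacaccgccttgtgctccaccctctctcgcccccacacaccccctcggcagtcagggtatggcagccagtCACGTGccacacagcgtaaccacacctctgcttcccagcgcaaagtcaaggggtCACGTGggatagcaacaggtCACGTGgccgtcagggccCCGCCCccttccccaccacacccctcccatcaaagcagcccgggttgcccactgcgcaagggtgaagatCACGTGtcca
The Cdkn1a stretch, ahead of the first of its start sites in that table, held 2 matches to the p53 half-site, where 7.13% of 32851 upstream windows of 250 bases held at least 1. These windows were not cut at annotated exons. The Cdkn1b stretch held 2 CCAAT boxes and 1 Sp1 box, which 33.8% and 32.7% of all windows held. The Cdk4 stretch held 4 E-boxes, where 6.02% of all windows held any, and 1 Sp1 box. A FOXO motif was in 3.17% of windows and in none of these stretches. These letters describe the sequences and do not show that a factor was bound.

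Among the CIP/KIP inhibitors, Cdkn1a, which encodes the inhibitor p21 and is a well known target of p53, had the smallest p of the 9 tested genes. Cdkn1a (ENSMUSG00000023067.14, chromosome 17, 29090976 to 29100727, mm10) had 74.6 and 79.3 CPM in the libraries labelled Ppm1bCKO, against 56.3 and 49.9 CPM in Ppm1bfl/fl. Both libraries labelled Ppm1bCKO were high, and the gap between the genotypes was wider than the gap within either. The means were 76.9 ± 3.3 CPM in the libraries labelled Ppm1bCKO and 53.1 ± 4.5 CPM in Ppm1bfl/fl (SD, n = 2 each). This gave a log2 fold change of 0.54 ± 0.16 (standard error; edgeR adjusted p = 0.557, unadjusted p = 0.0106). Of its 3553 exonic bases, 273 overlap the antisense gene AC167363.2, which had at most 26 counts in a library.

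Cdkn1b encodes p27, which holds Cdk2 complexes inactive in resting cells. It had 146 and 159 CPM in the libraries labelled Ppm1bCKO, against 122 and 125 CPM in Ppm1bfl/fl. The genotypes did not overlap, and the log2 fold change was 0.30 ± 0.16 (edgeR adjusted p = 0.717). Cdkn1c encodes p57, the family member most tied to HSC quiescence in mice. It had 19 and 17 counts in the libraries labelled Ppm1bCKO and 16 and 20 counts in Ppm1bfl/fl. The exact 95% Poisson interval of the lowest of these, 16, ran from 9.15 to 26.0 and held all the others. The raw counts thus showed no difference beyond counting error, and a small one could not be seen at this depth (log2 fold change 0.29 ± 0.48, edgeR adjusted p = 0.856). Cdkn1c also shares 625 of its 2039 exonic bases with the antisense gene Gm44732, which has 635 exonic bases and was listed with 0 counts in all 4 libraries. The strand setting of the counting is not given, and reads in the shared stretch may have been assigned to neither gene. That 0 therefore does not show that no reads fell there.

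**Figure D1:**
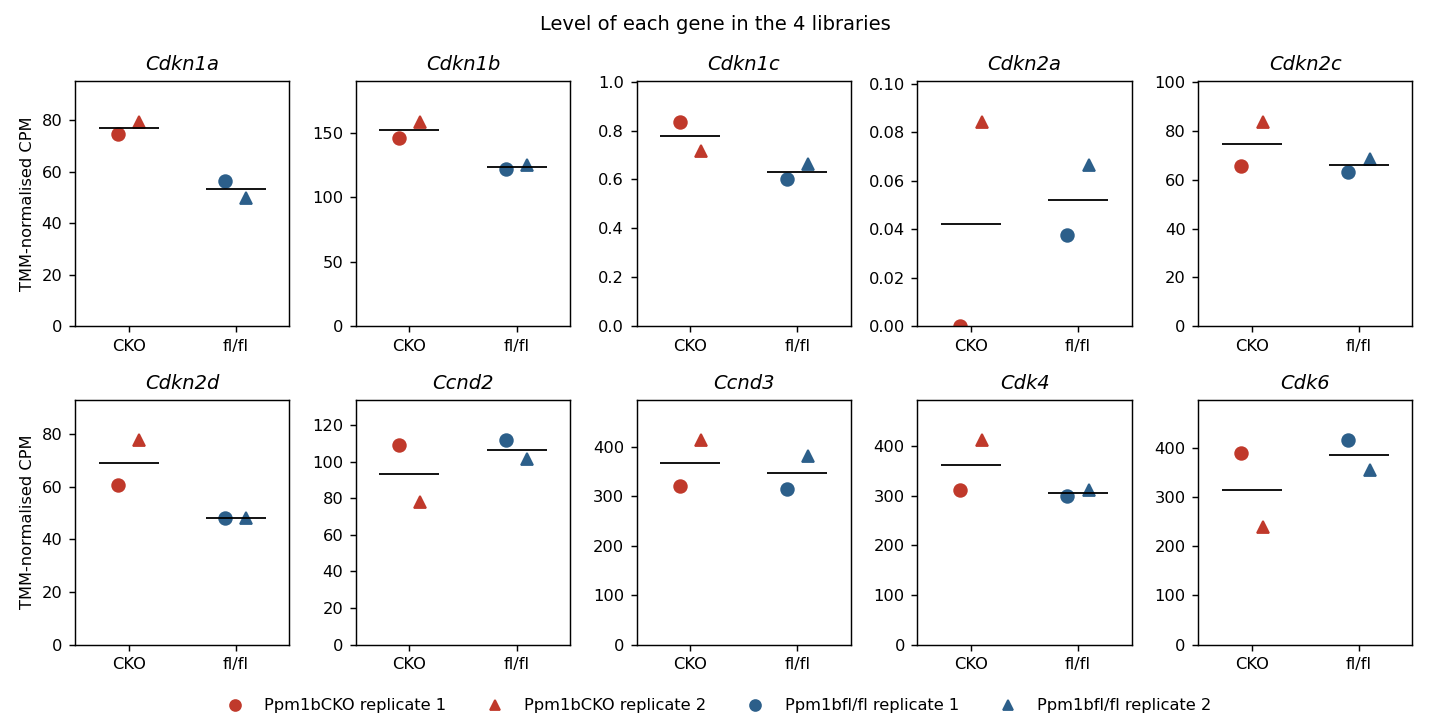
TMM-normalised CPM of each gene in the 2 libraries labelled Ppm1bCKO (red, left) and the 2 Ppm1bfl/fl libraries (blue, right), with circles for replicate 1, triangles for replicate 2 and lines for group means; each axis starts at 0. Cdkn1a, Cdkn1b and Cdkn2d show a gap between the groups, whereas for Ccnd2 and Cdk6 Ppm1bCKO replicate 2 alone lies low, at 77.9 and 238 CPM.

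Of the INK4 inhibitors, Cdkn2d, which encodes p19INK4d, had a difference close in size to that of Cdkn1a. Cdkn2d (ENSMUSG00000096472.2, chromosome 9, 21288410 to 21291407, mm10) had 60.6 and 77.6 CPM in the libraries labelled Ppm1bCKO, against 48.1 and 48.0 CPM in Ppm1bfl/fl. The Ppm1bfl/fl libraries were nearly equal and the other pair lay above them, replicate 2 furthest. The log2 fold change was 0.52 ± 0.18 (edgeR adjusted p = 0.658, unadjusted p = 0.0185). It was 0.33 without Ppm1bCKO replicate 2, and 0.35 with the dependence on gene length taken out of each library, a step added once the data had been seen. Cdkn2d has the second shortest exons of the 10 genes, 1574 bases.

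Cdkn2c encodes p18INK4c, whose loss in mice expands HSCs. It had 65.5 and 83.8 CPM in the libraries labelled Ppm1bCKO, against 63.1 and 68.7 CPM in Ppm1bfl/fl, so the genotypes overlapped (log2 fold change 0.18 ± 0.18, edgeR adjusted p = 0.772). Without Ppm1bCKO replicate 2 the log2 fold change was -0.010. Cdkn2a, the source of p16INK4a and, from another first exon, of p19ARF, is kept silent in HSCs by Bmi1. It had 0 and 2 counts in the libraries labelled Ppm1bCKO and 1 and 2 counts in Ppm1bfl/fl. All 4 counts are below the 3 counts that a reading of 0 allows (0.0995 to 0.132 CPM over the libraries), so no fold is given, and gene counts would not separate its products. Its neighbour Cdkn2b, which encodes p15INK4b, had 4 and 3 counts against 2 and 3 in Ppm1bfl/fl.

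Both D-type cyclins overlapped between the genotypes. Ccnd3, which carries much of the D-type cyclin function of lymphoid and erythroid precursors, was the more abundant, with 321 and 414 CPM in the libraries labelled Ppm1bCKO, against 314 and 381 CPM in Ppm1bfl/fl (log2 fold change 0.08 ± 0.20, edgeR adjusted p = 0.910). In each genotype replicate 2 was the higher. Ccnd2, a cyclin induced by growth factors in progenitors and B cells, had 109 and 77.9 CPM in the libraries labelled Ppm1bCKO, against 112 and 101 CPM in Ppm1bfl/fl (log2 fold change -0.19 ± 0.20, edgeR adjusted p = 0.778). Ppm1bCKO replicate 2 was below both Ppm1bfl/fl libraries and replicate 1 between them. Within a library, Ccnd2 per kilobase of exons was 0.317 and 0.176 times Ccnd3 in the libraries labelled Ppm1bCKO, against 0.331 and 0.248 times in Ppm1bfl/fl (two-sided exact permutation p = 0.667, adjusted over 4 ratios 0.667). With 2 libraries against 2 that test cannot go below 0.333.

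The kinases differed in opposite directions in Ppm1bCKO replicate 2. Cdk4 (ENSMUSG00000006728.12, chromosome 10, 127063534 to 127067920, mm10) had 312 and 411 CPM in the libraries labelled Ppm1bCKO, against 299.8 and 312 CPM in Ppm1bfl/fl. Replicate 1 was level with the higher Ppm1bfl/fl library, so the lack of overlap is by less than 1 CPM (log2 fold change 0.24 ± 0.19, edgeR adjusted p = 0.736). Cdk4 shares 19.7% of its exonic bases with Tspan31 on the other strand, which lay at 30.7 to 35.8 CPM over the libraries. Since the strand setting of the counting is not given, reads in that stretch cannot be told apart. Cdk6 (ENSMUSG00000040274.11, chromosome 5, 3341485 to 3531008, mm10) had 389 and 238 CPM in the libraries labelled Ppm1bCKO, against 415 and 355 CPM in Ppm1bfl/fl (log2 fold change -0.30 ± 0.24, edgeR adjusted p = 0.744). Replicate 1 was within the Ppm1bfl/fl range and replicate 2 below it. Within a library, Cdk6 per kilobase was 0.290 and 0.134 times Cdk4 in the libraries labelled Ppm1bCKO, against 0.322 and 0.264 times in Ppm1bfl/fl (two-sided exact permutation p = 0.667, adjusted over 4 ratios 0.667). The log2 difference of this ratio was -0.56 with all libraries and -0.0097 without Ppm1bCKO replicate 2.

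Scaled by exonic length, the 4-library mean levels ran from 103 CPM per kilobase for Cdk4 to 0.0401 for Cdkn2a. Cdk4 stood clear of the next gene, Ccnd3 (40.7), in every library. Ccnd3, Cdkn2d (37.2), Cdkn1b (30.4), Cdkn2c (26.2), Cdk6 (24.99) and Cdkn1a (18.3) followed. The ranges of each neighbouring pair in that order overlapped over the libraries. Within every library, however, Cdkn2d was above Cdkn1b, and Cdkn1b above Cdkn2c. The order of the other neighbouring pairs changed between libraries. Ccnd2 (10.6) was below the range of Cdkn1a, and Cdkn1c (0.345) far below Ccnd2.

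**Figure D2:**
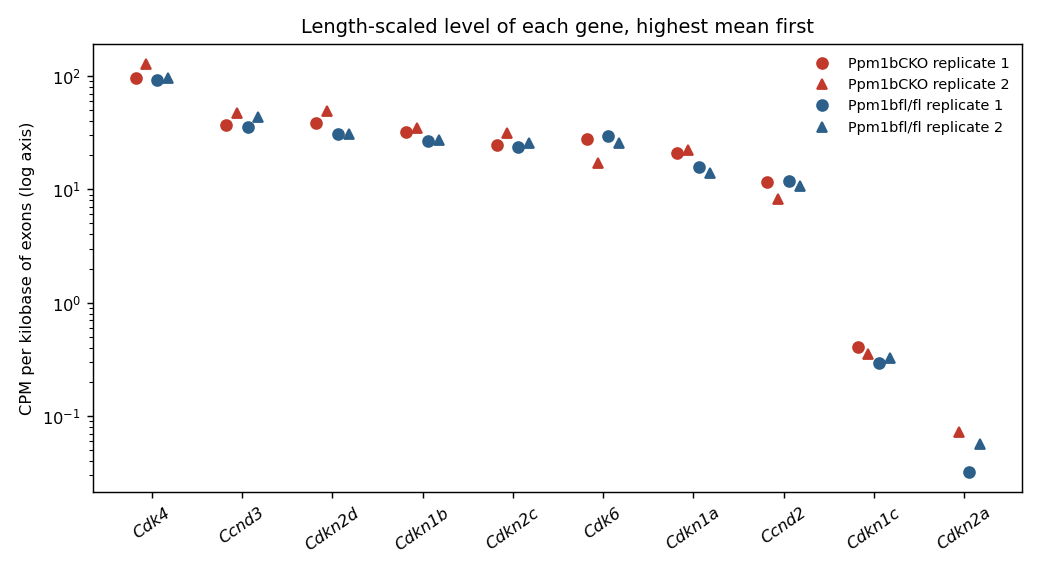
CPM per kilobase of exons (log axis) of each gene in the 4 libraries, ordered by their mean, with the libraries labelled Ppm1bCKO in red and the Ppm1bfl/fl libraries in blue; the library with 0 counts of Cdkn2a has no point. Cdk4 is highest at a mean of 103, and Cdkn1c and Cdkn2a lie below 1.

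Summed per kilobase, the 6 inhibitors came to 116 and 138 CPM per kilobase in the libraries labelled Ppm1bCKO, against 97.1 and 98.0 in Ppm1bfl/fl. The D-type cyclins Ccnd2 and Ccnd3, without Ccnd1, came to 48.2 and 55.4, against 47.7 and 54.2. Per kilobase, the inhibitors were thus 2.42 and 2.49 times these cyclins in the libraries labelled Ppm1bCKO and 2.04 and 1.81 times in Ppm1bfl/fl. The size of these multiples depends on the scaling, since the cyclins have long exons (9409 and 8775 bases). In CPM without that scaling, Ccnd3 alone was above each inhibitor in every library. Cdkn1b alone was 0.667 and 0.629 times the cyclins, against 0.564 and 0.507 times in Ppm1bfl/fl. As measured, neither ratio overlapped between the genotypes, and their log2 differences were 0.36 and 0.28. Without scaling by exonic length the log2 differences were 0.34 and 0.28. With the dependence on gene length taken out these were 0.15 and 0.16, and in both ratios the genotypes then overlapped. The sums are given as descriptions, and no p is printed for these 2 ratios, since they sum over genes chosen with earlier results known. They are among the 4 ratios over which the permutation p-values above were adjusted. With 2 libraries against 2 that test cannot go below 0.333, even where the genotypes do not overlap.

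Which genes would be called depended on Ppm1bCKO replicate 1. With that library left out and replicate 2 alone standing for the genotype, 5 of the 9 tested genes passed, and so did 3336 of 17177 genes in all. They were Cdkn1a (log2 fold change 0.58, edgeR adjusted p = 0.00905), Cdkn2d (0.69, 0.00281) and Cdk4 (0.42, 0.0283), which were higher, and Ccnd2 (-0.45, 0.0305) and Cdk6 (-0.70, 0.00475), which were lower. That fit takes the lone library to vary like the Ppm1bfl/fl pair. With replicate 2 left out instead, 0 of the 9 passed, Cdk6 had a log2 fold change of 0.015, Ccnd2 0.034, Ccnd3 -0.12 and Cdk4 0.03, while Cdkn1a kept 0.49 (edgeR adjusted p = 0.265) and Cdkn1b 0.24. The differences of Cdk6, Ccnd2 and Cdk4 were thus near 0 without Ppm1bCKO replicate 2. By contrast, Cdkn1a, Cdkn1b and Cdkn2d were higher in both libraries labelled Ppm1bCKO, and Cdkn2d kept 0.33 without replicate 2.

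**Figure D3:**
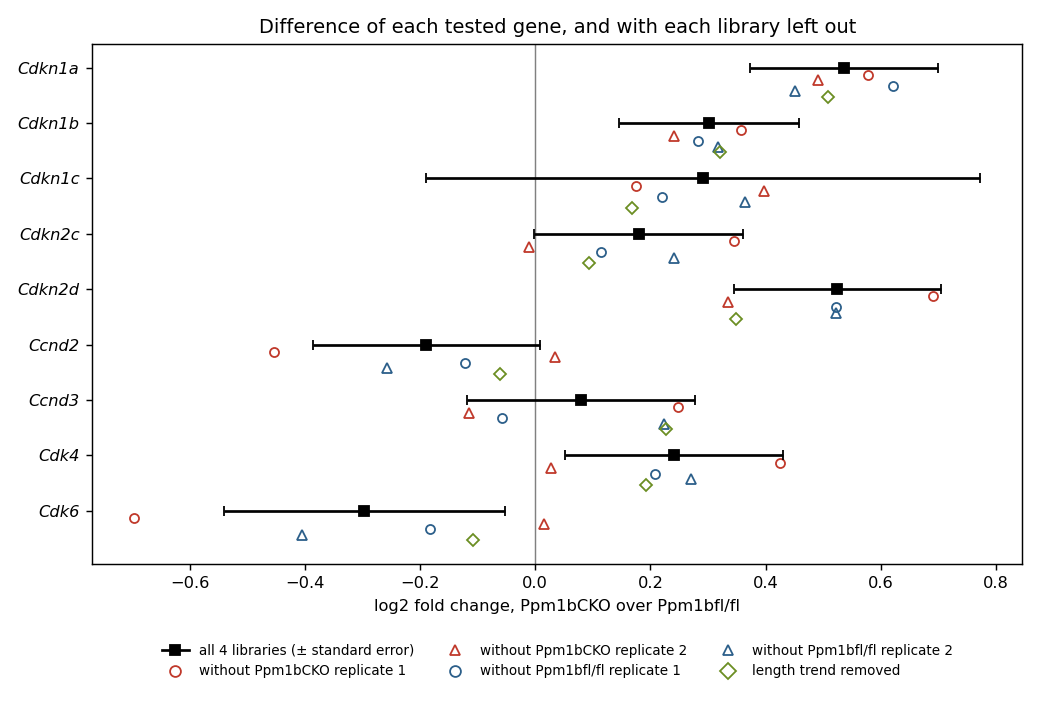
Log2 fold change (libraries labelled Ppm1bCKO over Ppm1bfl/fl) of the 9 tested genes: black squares with standard errors for all 4 libraries, open circles and triangles with 1 library left out, and green diamonds after removal of the trend with gene length. Cdkn1a stays between 0.45 and 0.62, whereas Cdk6 runs from -0.70 to 0.015.

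Gene length moved with these differences. Cdk6 has 13989 exonic bases and Ccnd2 9409, the longest of the 10 genes, and their log2 differences between Ppm1bCKO replicates 2 and 1 were -0.71 and -0.49. For Cdkn2d (1574 bases), Cdkn2c (2686) and Cdk4 (3249) these were 0.36, 0.36 and 0.40. Ccnd3, with 8775 bases, went against that order at 0.37, and so did the scarce Cdkn1c, with 2039 bases, at -0.22. Cdkn1a (3553 bases) and Cdkn1b (4552) lay between, at 0.09 and 0.12. After the trend was removed the log2 fold change of Cdk6 was -0.11, that of Ccnd2 -0.06 and that of Cdkn1a 0.51 (edgeR adjusted p = 0.366). That of Ccnd3 was 0.23 (edgeR adjusted p = 0.760), against 0.08 before. Cdkn1b had 0.32, Cdk4 0.19, Cdkn1c 0.17 and Cdkn2c 0.09.

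**Figure D4:**
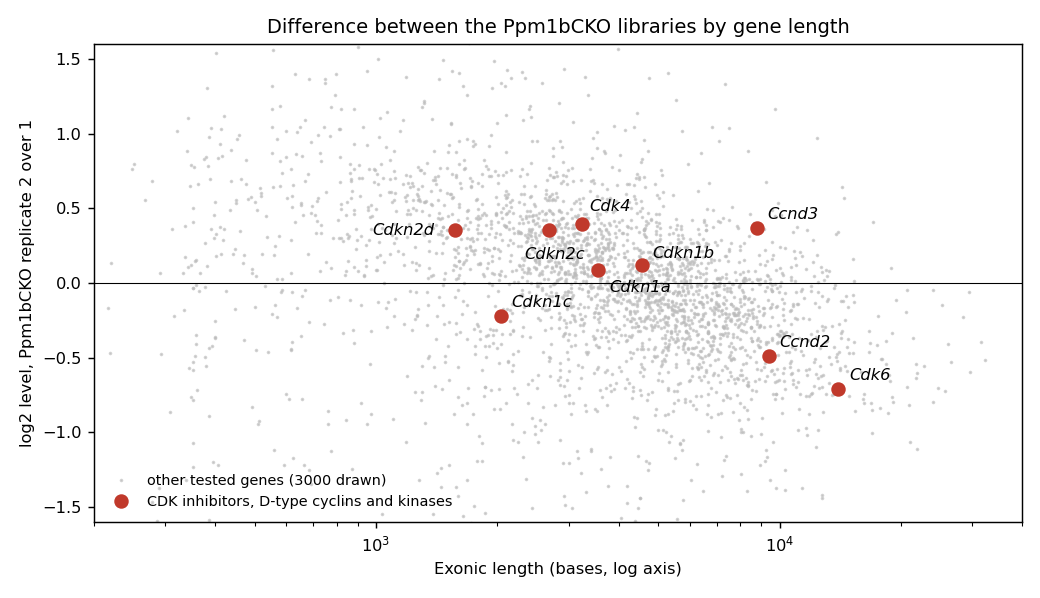
Log2 ratio of Ppm1bCKO replicate 2 over replicate 1 against exonic length (log axis) for the 9 tested genes (red) and 3000 other tested genes drawn at random (grey; points beyond the axis limits are not shown). The cloud slopes down with length, and Cdk6 and Ccnd2 lie at its long end at -0.71 and -0.49.

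The profile of Cdk6 over the 4 libraries was most like those of Dock2, Sptan1 and Dock8 among 1000 other genes of similar abundance. The distances between centred log2 CPM profiles were 0.0355, 0.0555 and 0.0821, beside a median of 0.693. Their exonic lengths were 11425, 13431 and 10070 bases. Cdkn2d was most like Ptpn2, Frg1 and the interferon-induced GTPase gene Ifi47 among 4508 genes (0.0322, 0.0353 and 0.0410, median 0.583). With 4 libraries such likeness describes these libraries and no more.

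Other genes of the pathway were not called either. Among 9 tested G1/S cyclins, kinases and activators 0 passed, 7 were positive and 2 negative (median log2 fold change 0.18). Ccnd1, the remaining D-type cyclin and a Wnt target, had 16.6 and 12.4 CPM in the libraries labelled Ppm1bCKO, against 21.4 and 19.9 CPM in Ppm1bfl/fl (log2 fold change -0.51 ± 0.22, edgeR adjusted p = 0.717). The TFIIH kinase partners Ccnh and Mnat1 had 0.34 and 0.26. Of 19 pocket protein, E2F and DREAM genes, the readers of D-cyclin kinase activity, 0 passed, with 9 positive and 10 negative (median -0.0082). The leading ones by p were E2f5 (0.61 ± 0.28), Rbbp4 (0.32 ± 0.19) and Lin9 (0.24 ± 0.17). Of 14 genes for the turnover of inhibitors and D-type cyclins 0 passed, with 9 positive and a median of 0.05. Skp1a and Cks1b, parts of the ligase complex that degrades p27, had log2 fold changes of 0.45 ± 0.20 and 0.36 ± 0.22.

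Of 19 transcription regulators known to act on these genes 0 passed, with 6 positive and 13 negative (median -0.15). Foxo1, a factor that switches on Cdkn1a and Cdkn1b and is also needed by B cell precursors, had 40.6 and 54.8 CPM in the libraries labelled Ppm1bCKO, against 31.8 and 27.8 CPM in Ppm1bfl/fl (log2 fold change 0.68 ± 0.20, edgeR adjusted p = 0.517). Hes1, a Notch target that represses Cdkn1b in some cells, had 5.15 and 5.98 CPM, against 3.08 and 2.69 CPM in Ppm1bfl/fl (0.95 ± 0.28, edgeR adjusted p = 0.523). Kmt2a, a histone methyltransferase gene with 16670 exonic bases, had -0.64 ± 0.25.

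**Figure D5:**
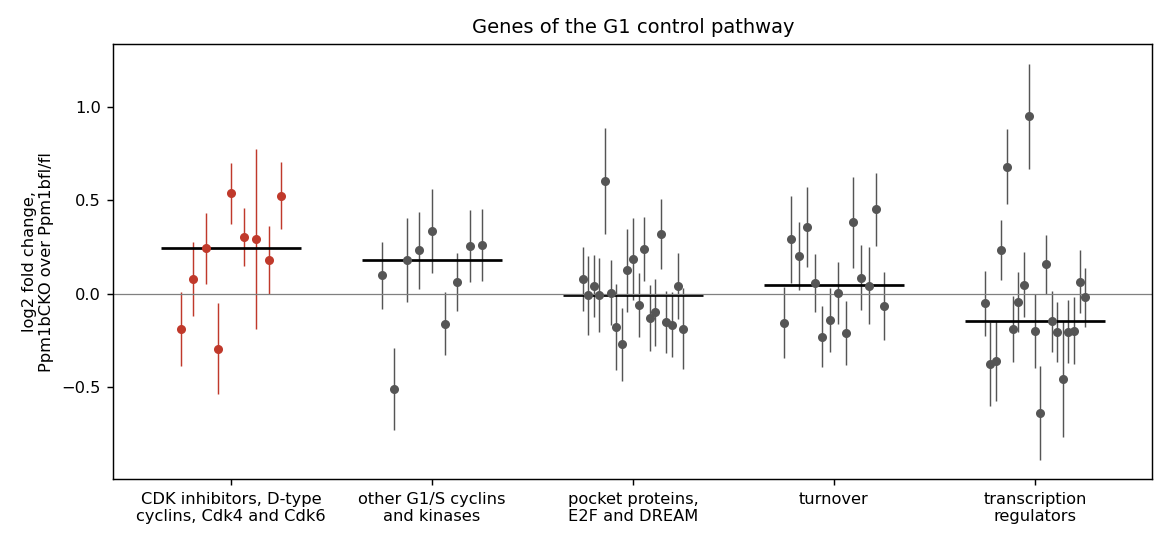
Log2 fold change with standard error of each tested gene (libraries labelled Ppm1bCKO over Ppm1bfl/fl) for the CDK inhibitors, D-type cyclins and kinases (red) and 4 lists of other G1 control genes (grey), with a line at each median. The medians are 0.24, 0.18, -0.0082, 0.05 and -0.15 from left to right, and no gene passed the test.

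Markers of several other cell types differed between the same libraries. Beside the counts below, 20.6% of all tested genes lay higher without overlap in the libraries labelled Ppm1bCKO and 20.6% lower. All 12 B lineage markers lay higher in the libraries labelled Ppm1bCKO without overlap, with a summed level of 354 and 732 CPM, against 240.9 and 239.6 CPM in Ppm1bfl/fl. The same held for all 8 eosinophil markers, whose sums are given above, and for 6 of 8 plasmacytoid dendritic cell markers (summed 840.3 and 815 CPM, against 719 and 649.7 CPM). T and NK cell markers were higher without overlap for 6 of 8. In the other direction, 10 of 12 macrophage markers lay lower without overlap (summed 729.6 and 833 CPM, against 1066 and 1107 CPM), as did 5 of 8 plasma cell markers (summed 765 and 1021 CPM, against 2805 and 1686 CPM). The plasma cell marker Irf4 lay higher without overlap, with 102 and 143 CPM, against 83.6 and 76.3 CPM in Ppm1bfl/fl. Of 10 neutrophil and 10 stromal and endothelial markers, 3 each lay higher without overlap, near the share over all tested genes, and 0 lower. All 10 erythroid and all 5 tested megakaryocyte markers overlapped. The erythroid sum was 11249 and 16117 CPM in the libraries labelled Ppm1bCKO, against 7519 and 13309 CPM in Ppm1bfl/fl, replicate 2 being the higher in each genotype. Of 12 HSPC and LSK markers 0 lay higher and 1 lower without overlap, with sums of 562 and 499 CPM, against 665 and 539 CPM. None of the markers on these 11 lists was at 0 in all libraries. Their part in the levels of Cdkn1a, Cdkn1b, Cdkn2d and Cdk6 was not tested.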

How the data were processed

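Gene-level RNA-seq was analysed in 2 libraries labelled Ppm1bCKO and 2 labelled Ppm1bfl/fl. RNA was prepared with TRIzol and libraries with a TruSeq kit, per the labels' protocols. The authors deposited raw whole-number counts per gene with exonic lengths; the build (mm10) and the tools featureCounts 2.0.1, HISAT2 2.2.0 and Trim Galore 0.6.7 are named per the submitters' processing notes. Annotation release, strand setting and treatment of multiply mapping reads are not given in the sources used here. Of 55399 identifiers 55139 matched GENCODE symbols. The test was edgeR 4.0.16 under R 4.3.3 (TMM, filterByExpr with a minimum count of 10 and total of 15, robust quasi-likelihood test, no covariates), with Benjamini-Hochberg adjustment over 16393 genes and a threshold of 0.05; the fit was tested on simulated data. Each log2 fold change has its standard error. Nothing in the labels ties replicates to separate mice, and p-values reflect only how far these libraries spread, which may be technical in the Ppm1bfl/fl pair; the Ppm1bCKO pair differed in Y-linked counts, 5870 and 2. Replicates differed beyond sampling noise (chi-square per degree of freedom 53.5 and 25.5 in the Ppm1bCKO and Ppm1bfl/fl pairs). Intervals and limits cover counting error only.

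The genes and lists were chosen with earlier results of these data known. All 10 genes are named whatever their p, with up to 3 genes of smallest p from each other list, and the 3 genes closest in profile to each of the 2 genes of widest range. Cdkn2b was named after its values were seen. Alternatives were DESeq2 size factors, DESeq2 1.42.0, limma-voom (limma 3.58.1), other low-count filters, a replicate block, leaving out single libraries, immunoglobulin genes left out, ratios without length scaling and, added after the data were seen, per-library removal of the dependence on gene length (lowess, span 0.3).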

Additional observations from a re-analysis of the deposited data

How the results depend on the processing

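None of the 9 tested genes passed in any alternative except the fit without Ppm1bCKO replicate 1, and over the fits with 1 library left out between 0 and 5 of them passed. Cdkn1a, Cdkn1b, Cdkn1c, Cdkn2d and Cdk4 kept a positive sign in every alternative that gave a value. Without Ppm1bCKO replicate 2 the log2 fold changes of Cdkn2c (-0.010), Ccnd2 (0.034), Ccnd3 (-0.12) and Cdk6 (0.015) and the log2 ratio difference of Ccnd2 over Ccnd3 (0.14) changed sign, as did Ccnd3 without Ppm1bfl/fl replicate 1 (-0.06) (causes were not tested). Without Ppm1bCKO replicate 1 the highest of Cdkn2c (0.34) and Ccnd3 (0.25) and the lowest of Ccnd2 (-0.45) and Cdk6 (-0.70) were reached. Over the left-out fits that ratio difference ran from -0.71 to 0.14, that of Cdk6 over Cdk4 from -1.12 to -0.0097, that of summed inhibitors over D-type cyclins from 0.27 to 0.44 and that of Cdkn1b over them from 0.20 to 0.35. Of all genes, 61 passed in the reported fit, 199 by DESeq2, 311 with no low-count filter, 0 of 16177 in edgeR with immunoglobulin genes left out (989 at an unadjusted p under 0.05), and 94 to 3336 with 1 library left out. With the replicate number as a block 207 genes passed and 0 of the 9. The labels tie the numbers to no shared mouse or batch. Deviations of same-numbered libraries from their group means correlated at 0.0641 over all tested genes. With 2 libraries per group that value cannot show whether same-numbered libraries shared a batch, which was not tested. Depth limited Cdkn1c and Cdkn2a.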
